A study of Mus musculus with 9 samples.

Results

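Natural killer (NK) cells, lymphocytes that kill infected or transformed cells, decide whether to attack by adding up signals from activating and inhibitory receptors. The genes described here are 3 activating receptors (Ncr1, Cd160 and Fcgr3), 4 signalling adaptors (Fcer1g, Cd247, Tyrobp and Hcst) and 2 tyrosine kinases (Syk and Zap70). They were chosen by symbol, with earlier results of these data known. Each was read from the brightest probe set that carries its symbol alone. Of these 9 genes, 8 had such a probe set and were among the 12579 genes tested, namely 3 of 3 receptors, 3 of 4 adaptors and 2 of 2 kinases. Cd247, which encodes the CD3 zeta chain, was not analysed here.

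The cells came from spleens of female C57BL/6N mice and were of the genotypes Tyk2K923E, which carries a kinase-inactive form of the Janus kinase TYK2, Tyk2-/-, which lacks TYK2, and wild type (WT). TYK2 acts below several cytokine receptors, among them those for type I interferons and for IL-12. In all 3 genotypes, DX5 magnetic enrichment was followed by 7 days of culture with 5000 U/ml recombinant human IL-2, so every array shows IL-2-expanded cells. Each culture pooled 3 to 4 mice of a genotype, and 3 independent experiments gave 1 Affymetrix array per genotype and experiment, 9 arrays in all.

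Most activating receptors of NK cells have no signalling motif of their own. They pair in the membrane with adaptors: NKp46 (Ncr1) and the IgG receptor CD16 (Fcgr3) with the Fc receptor gamma chain (Fcer1g) and, for NKp46, also with CD3 zeta, several Ly49 and CD94/NKG2 receptors with DAP12 (Tyrobp), and NKG2D with DAP10 (Hcst). The gamma chain, CD3 zeta and DAP12 carry immunoreceptor tyrosine-based activation motifs (ITAMs), which bind SYK and ZAP-70 once phosphorylated, whereas DAP10 carries a motif that recruits phosphatidylinositol 3-kinase. CD160 is an immunoglobulin-like receptor that binds the herpesvirus entry mediator HVEM and is held in the membrane by a lipid anchor in its main form.

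Levels are RMA signals on a log2 scale, differences are log2 differences between genotypes, and levels of different genes were not compared with each other. Genotypes were compared within each experiment (a paired limma fit over all 9 arrays), and a gene is said to have risen or fallen only where the p-value adjusted over all 12579 genes was under 0.05. The paired p-values rest on how much the genotype differences within experiments varied between experiments, taken over all 3 genotypes with 3 pooled cultures each. For each gene limma also draws this spread towards that of all genes tested. A shift between experiments that all genotypes share is taken out by the pairing. All 8 measured genes lay above the median of all probe sets on all 9 arrays. In RNA from a whole culture, fewer cells of a type and less RNA per cell cannot be told apart.

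The genotypes rest on the labels. The Tyk2 probe set read 8.63, 8.43 and 8.52 in Tyk2K923E, 9.55, 8.63 and 8.85 in Tyk2-/- and 8.68, 8.56 and 8.63 in WT cells (experiments 1, 2 and 3), so in no experiment did the array labelled Tyk2-/- read lower than the WT array of that experiment. Where its probes lie relative to the disrupted part of the gene is not given in the sources used here, so this probe set does not check the Tyk2-/- label. The first principal component of the 9 arrays held 60.953% of the variance. How experiment 1 differed from the other experiments is given below for the measured genes in all 3 genotypes. All 13 of the 13 NK cell marker genes looked up lay above the array median on every array, and their mean on an array ranged over 10.99 to 11.02 in Tyk2K923E, 10.97 to 11.12 in Tyk2-/- and 11.14 to 11.18 in WT cells.

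Cd160 was the member that fell, and it fell in Tyk2K923E cells. Both annotated starts of this gene are therefore shown here, as the 250 bases before each start on the minus strand of mouse chromosome 3 (RefSeq, GRCm38.p6), read 5′ to 3′. The windows lie at chr3:96829352-96829601 and chr3:96814522-96814771. The capitals mark the match to the motif TTCNNNGAA, the palindrome bound by STAT proteins, which Janus kinases activate.
Cd160 start A: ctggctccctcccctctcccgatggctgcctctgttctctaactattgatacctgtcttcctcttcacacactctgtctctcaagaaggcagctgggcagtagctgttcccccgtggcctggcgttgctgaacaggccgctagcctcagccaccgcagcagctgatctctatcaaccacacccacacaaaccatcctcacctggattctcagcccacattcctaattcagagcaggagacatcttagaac
Cd160 start B: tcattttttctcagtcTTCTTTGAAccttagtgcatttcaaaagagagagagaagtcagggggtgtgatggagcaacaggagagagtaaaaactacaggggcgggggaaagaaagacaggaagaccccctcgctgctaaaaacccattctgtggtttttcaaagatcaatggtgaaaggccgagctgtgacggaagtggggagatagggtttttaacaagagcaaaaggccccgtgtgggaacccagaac
The match in the window of start B begins 234 bases before the start, and the window of start A holds none. RefSeq promoters were found for 8 of the 9 listed genes (none for Tyrobp), in 14 windows of 250 bases, and 1 of the 14 held the motif on either strand. Among all 32851 promoter windows of the same length, 2306 (7.0%) held it. The core of the interferon-stimulated response element, searched on both strands, was in 0 of the 14 windows and in 978 (3.0%) of all windows. These matches describe letters and not binding sites.

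Among the receptors, Cd160 separated Tyk2K923E cells from both other genotypes. Its signal was 7.60, 7.70 and 7.59 in Tyk2K923E cells, 8.01, 8.05 and 8.17 in Tyk2-/- cells and 8.14, 8.40 and 8.39 in WT cells (experiments 1, 2 and 3). All 3 Tyk2K923E arrays lay below every Tyk2-/- and every WT array, whereas Tyk2-/- and WT arrays overlapped. The means were 7.63 ± 0.06 in Tyk2K923E, 8.07 ± 0.08 in Tyk2-/- and 8.31 ± 0.15 in WT cells (SD, n = 3 each).

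In Tyk2K923E against WT cells, Cd160 fell by 0.68 on the log2 scale (SE 0.07, 95% interval -0.85 to -0.51, limma adjusted p = 0.0375), which is a 1.60-fold lower signal. The differences within experiments 1, 2 and 3 were -0.54, -0.70 and -0.80. By p-value Cd160 ranked 4 among the 12579 genes. Without pairing by experiment the same difference had an adjusted p of 0.155 and was not called. Over 22 alternative settings the difference stayed between -0.75 and -0.62, and it was called under 8 of them. Leaving out an array or an experiment ended the call in 11 of 12 cases (adjusted p 0.0223 to 0.394), the exception being the fit without the Tyk2-/- array of experiment 2.

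The Cd160 differences of Tyk2-/- from WT within experiments 1, 2 and 3 were -0.13, -0.35 and -0.23. Their mean was -0.24 (95% interval -0.40 to -0.07, limma adjusted p = 0.432), which was not called. Relative to Tyk2K923E, Cd160 in Tyk2-/- cells differed by 0.41, 0.35 and 0.57 within the experiments, with a mean of 0.44 (95% interval 0.28 to 0.61). The arrays of these genotypes did not overlap, and the difference was not called after adjustment over all genes (limma adjusted p = 0.231). The comparisons of Tyk2K923E and of Tyk2-/- with WT share the WT arrays, here and below.

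Fcgr3, which encodes the low-affinity IgG receptor CD16 that lets NK cells attack antibody-coated targets, was lower than WT within every experiment in both mutant genotypes. Fcgr3 read 10.03, 9.17 and 9.15 in Tyk2K923E cells, 9.87, 9.17 and 8.86 in Tyk2-/- cells and 10.29, 9.57 and 9.43 in WT cells. The arrays of the genotypes overlapped, and in each genotype the array of experiment 1 was higher than those of experiments 2 and 3.

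The Fcgr3 differences of Tyk2-/- from WT within experiments 1, 2 and 3 were -0.42, -0.41 and -0.58. Their mean was -0.47 (SE 0.07, 95% interval -0.63 to -0.31), with a limma adjusted p of 0.0813, so Fcgr3 was not called. It passed the threshold under 3 of 22 alternative settings, with an adjusted p of 0.0402 under a stricter intensity filter, 0.0346 with an intensity trend and 0.0341 with array weights. Without pairing, the adjusted p was 1. In Tyk2K923E against WT cells the Fcgr3 differences were -0.26, -0.41 and -0.29, with a mean of -0.32 (95% interval -0.48 to -0.16, limma adjusted p = 0.156). The difference of Tyk2-/- from Tyk2K923E was -0.15 (95% interval -0.31 to 0.01, limma adjusted p = 0.521).

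Ncr1, which encodes the NK cell receptor NKp46, varied more between experiments than between genotypes. Its signal was 10.79, 11.46 and 11.62 in Tyk2K923E cells, 11.05, 11.31 and 11.30 in Tyk2-/- cells and 11.17, 11.65 and 11.45 in WT cells. In each genotype the array of experiment 1 was the lowest, and the genotypes overlapped. The difference from WT was -0.13 in Tyk2K923E cells (95% interval -0.40 to 0.13, limma adjusted p = 0.763), with experiment 3 opposite in sign (0.17) to experiments 1 and 2 (-0.38 and -0.19). In Tyk2-/- cells it was -0.20 (95% interval -0.46 to 0.06, limma adjusted p = 0.634), and all 3 experiments were negative (-0.12, -0.33 and -0.15).

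**Figure D1:**
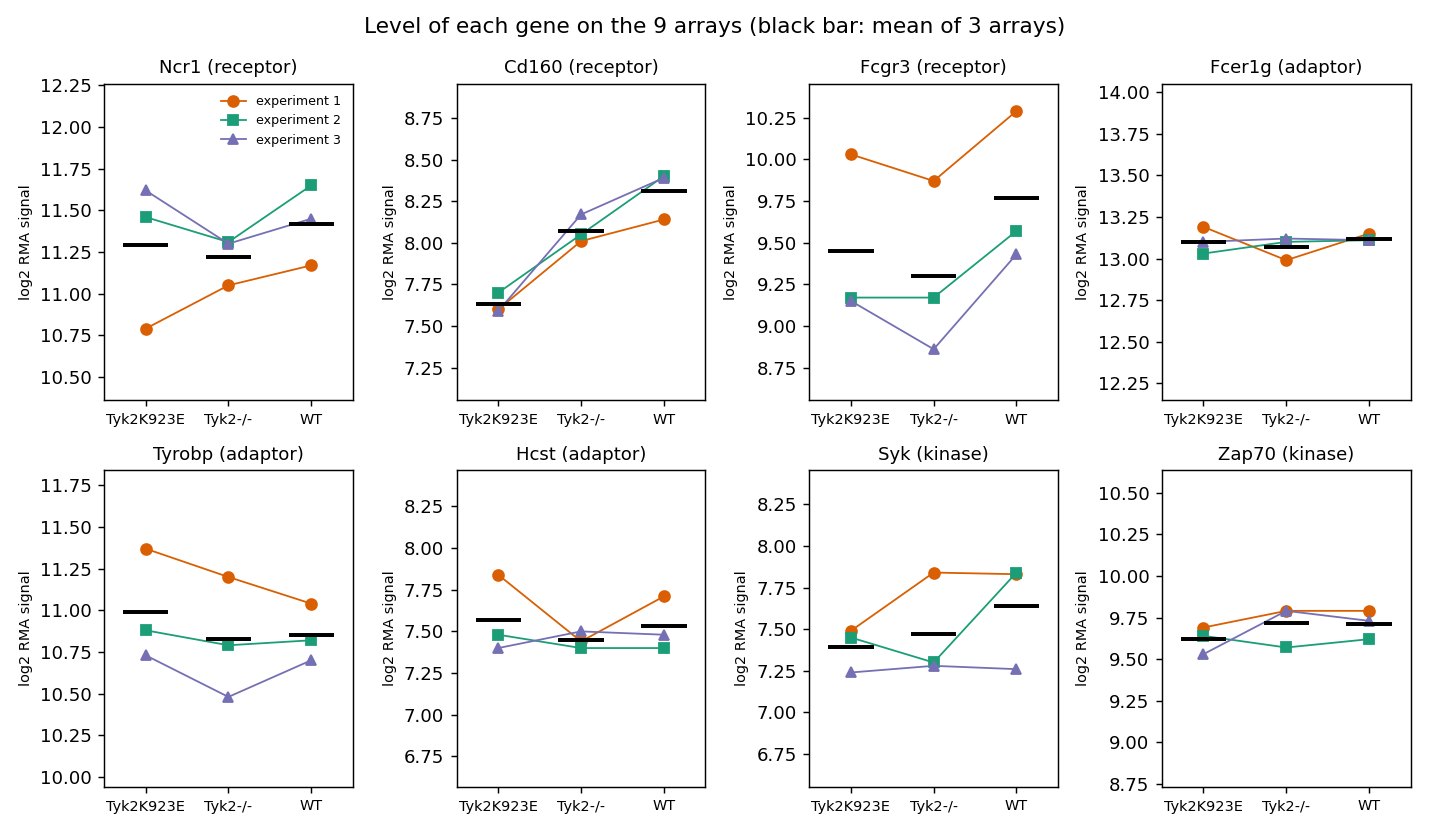
RMA signal on a log2 scale (vertical axis, each panel spanning the same number of log2 units) of the 8 measured genes in Tyk2K923E, Tyk2-/- and WT cells (horizontal axis). Points joined by a line are arrays of the same experiment, and black bars are means of 3 arrays. Cd160 is lower on all 3 Tyk2K923E arrays (7.59 to 7.70) than on any WT array (8.14 to 8.40), and the Fcgr3 arrays of experiment 1 are the highest of their genotype.

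Among the adaptors, none of the 3 measured genes was called in any comparison. Fcer1g, the ITAM-bearing gamma chain that pairs with CD16 and NKp46, ranged over 12.99 to 13.19 on the 9 arrays. Its signal was 13.19, 13.03 and 13.10 in Tyk2K923E cells, 12.99, 13.10 and 13.12 in Tyk2-/- cells and 13.15, 13.11 and 13.11 in WT cells. The difference from WT was -0.02 in Tyk2K923E cells (95% interval -0.17 to 0.14, limma adjusted p = 0.966) and -0.05 in Tyk2-/- cells (95% interval -0.21 to 0.11, limma adjusted p = 0.856).

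Tyrobp, which encodes DAP12, read 11.37, 10.88 and 10.73 in Tyk2K923E cells, 11.20, 10.79 and 10.48 in Tyk2-/- cells and 11.04, 10.82 and 10.70 in WT cells. It was above WT within each experiment in Tyk2K923E cells (0.33, 0.06 and 0.02), with a mean of 0.14 (95% interval -0.05 to 0.33, limma adjusted p = 0.645). In Tyk2-/- cells the differences from WT had both signs (0.16, -0.02 and -0.22), with a mean of -0.03 (95% interval -0.21 to 0.16, limma adjusted p = 0.947). The Tyk2-/- arrays were below the Tyk2K923E array of the same experiment in all 3 experiments (-0.17, -0.08 and -0.24), with a mean of -0.16 (95% interval -0.35 to 0.02, limma adjusted p = 0.541).

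Hcst, which encodes DAP10 and is the neighbour of Tyrobp with 0 protein-coding genes between them in RefSeq, read 7.84, 7.48 and 7.40 in Tyk2K923E cells, 7.44, 7.40 and 7.50 in Tyk2-/- cells and 7.71, 7.40 and 7.48 in WT cells. Its difference from WT was 0.04 in Tyk2K923E cells (95% interval -0.17 to 0.26, limma adjusted p = 0.927) and -0.08 in Tyk2-/- cells (95% interval -0.30 to 0.13, limma adjusted p = 0.818). The genotypes overlapped, and the sign of the difference was not the same in all 3 experiments for either mutant genotype.

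The kinases were not called either. Syk read 7.49, 7.45 and 7.24 in Tyk2K923E cells, 7.84, 7.30 and 7.28 in Tyk2-/- cells and 7.83, 7.84 and 7.26 in WT cells. In experiment 3 all 3 genotypes were close, while in experiment 2 both mutant genotypes were below WT. The difference from WT was -0.25 in Tyk2K923E cells (-0.33, -0.39 and -0.02 within the experiments, 95% interval -0.52 to 0.03, limma adjusted p = 0.553). In Tyk2-/- cells it was -0.17 (0.01, -0.54 and 0.02, 95% interval -0.44 to 0.10, limma adjusted p = 0.707), so the mean rested on experiment 2.

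Zap70, whose product shares the tandem SH2 structure of SYK, read 9.69, 9.64 and 9.53 in Tyk2K923E cells, 9.79, 9.57 and 9.79 in Tyk2-/- cells and 9.79, 9.62 and 9.73 in WT cells. The difference from WT was -0.09 in Tyk2K923E cells (95% interval -0.26 to 0.08, limma adjusted p = 0.752). In Tyk2-/- cells it was 0.01 (95% interval -0.16 to 0.17, limma adjusted p = 0.987), a mean whose sign turned under quantile normalization.

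**Figure D2:**
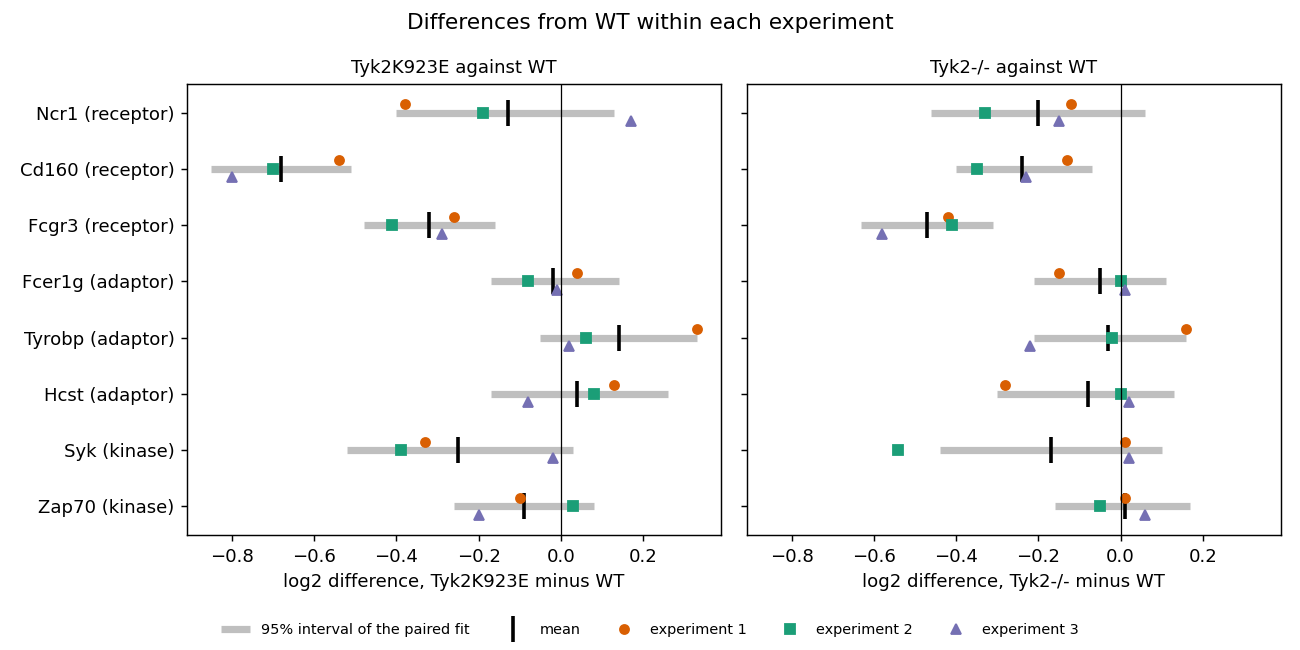
Log2 differences from WT (horizontal axes) of the 8 measured genes (vertical axis) in Tyk2K923E cells (left) and Tyk2-/- cells (right). Symbols are the differences within experiments 1, 2 and 3, black ticks their means and grey bars the 95% intervals of the paired fit. For Cd160 and Fcgr3 the intervals lie below 0 in both panels. For the receptor Ncr1, the adaptors and the kinases every interval includes 0.

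Counted together, 1 of the 8 measured genes was called in Tyk2K923E against WT, where 0.0874% of all 12579 genes were called (11 genes), and 0 of 8 without pairing, where 0.00795% of all genes were called (1 gene). In Tyk2-/- against WT, 0 of 8 were called with or without pairing, where 0.0874% (11 genes) of all genes were called with pairing and 0.0318% (4 genes) without. In Tyk2-/- against Tyk2K923E, 0 of 8 were called in either fit, and 0.0238% of all genes (3 genes) were called in each.

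At an unadjusted p under 0.05 in the paired limma fit, the genes were Cd160 and Fcgr3 in each mutant genotype against WT, which is 2 of 8 where 10.0% of all genes passed for Tyk2K923E and 9.08% for Tyk2-/-. The gene was Cd160 in Tyk2-/- against Tyk2K923E, 1 of 8 where 9.68% of all genes passed. Lower than WT within all 3 experiments were Cd160, Fcgr3 and Syk in Tyk2K923E cells, 3 of 8 where 14.6% of all genes were, and all 3 receptors in Tyk2-/- cells, 3 of 8 where 13.6% of all genes were. Arrays that lay wholly below WT were seen for 1 of 8 in Tyk2K923E cells (Cd160), where 3.80% of all genes had this, and for 0 of 8 in Tyk2-/- cells, where 2.74% did. Arrays of Tyk2-/- wholly above those of Tyk2K923E were seen for Cd160, against 2.89% of all genes.

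Receptors and adaptors were then set against each other within each experiment, as a description with no test. Their genes were chosen with earlier results of these data known. The mean log2 difference of the 3 receptors, Tyk2K923E minus WT, was -0.39, -0.43 and -0.31 in experiments 1, 2 and 3 (-0.38 ± 0.06, SD over experiments). That of the 3 measured adaptors was 0.17, 0.02 and -0.02 (0.05 ± 0.10). The receptor mean was thus below the adaptor mean in all 3 experiments, by -0.56, -0.45 and -0.28 (-0.43 ± 0.14). With Cd160 left out of the receptors this difference was -0.28.

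In Tyk2-/- minus WT, the receptor mean was -0.23, -0.36 and -0.32 (-0.30 ± 0.07) and the adaptor mean -0.09, -0.01 and -0.06 (-0.05 ± 0.04). The receptor mean was again below the adaptor mean in each experiment, by -0.14, -0.35 and -0.26 (-0.25 ± 0.11), and by -0.28 without Cd160. Here, though, Fcgr3 had the largest difference of the receptors (-0.47, beside -0.24 for Cd160 and -0.20 for Ncr1). Leaving out Cd160 therefore does not show how far this gap rested on 1 gene. The kinase means were -0.22, -0.18 and -0.11 (-0.17 ± 0.06) in Tyk2K923E minus WT and 0.01, -0.29 and 0.04 (-0.08 ± 0.18) in Tyk2-/- minus WT. In Tyk2-/- minus Tyk2K923E, receptors minus adaptors was 0.42, 0.10 and 0.03 (0.18 ± 0.21), less than its SD between experiments.

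The median log2 difference over the 8 genes was -0.11 in Tyk2K923E and -0.13 in Tyk2-/- cells relative to WT, beside medians over all 12579 genes of 0.002 for Tyk2K923E and 0.004 for Tyk2-/-. In Tyk2K923E cells the median was -0.32 for the receptors, 0.04 for the adaptors and -0.17 for the kinases. In Tyk2-/- cells it was -0.24 for the receptors, -0.05 for the adaptors and -0.08 for the kinases.

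**Figure D3:**
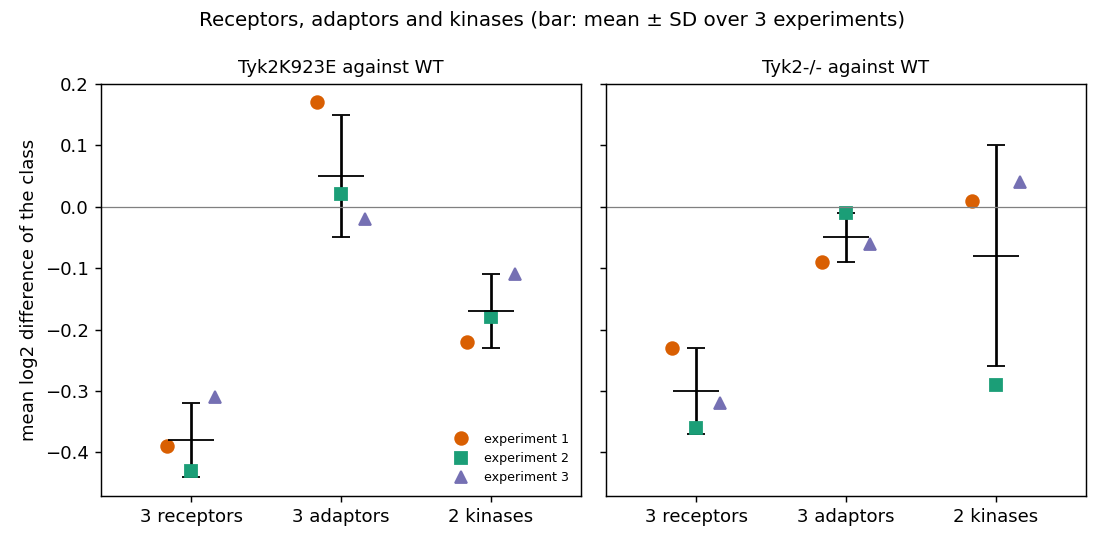
Mean log2 difference from WT (vertical axis) of the 3 receptors, the 3 measured adaptors and the 2 kinases in Tyk2K923E cells (left) and Tyk2-/- cells (right). Symbols are experiments 1, 2 and 3, and bars are the mean ± SD over the 3 experiments. The receptor means are below 0 in each experiment (-0.43 to -0.31 in Tyk2K923E and -0.36 to -0.23 in Tyk2-/- cells), and the adaptor means lie between -0.09 and 0.17.

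The same genes also differed between experiments, and not alike. The array of experiment 1 minus the mean of experiments 2 and 3 was 0.88 in Tyk2K923E, 0.86 in Tyk2-/- and 0.79 in WT cells for Fcgr3, and for Tyrobp it was 0.57 in Tyk2K923E, 0.57 in Tyk2-/- and 0.28 in WT cells. For Ncr1 it was -0.75 in Tyk2K923E, -0.26 in Tyk2-/- and -0.38 in WT cells, so experiment 1 was high in Fcgr3 and Tyrobp and low in Ncr1 in every genotype. Over the 3 genotypes it ranged from -0.26 to -0.05 for Cd160, from -0.12 to 0.12 for Fcer1g, from -0.01 to 0.40 for Hcst, from 0.15 to 0.55 for Syk and from 0.10 to 0.11 for Zap70. The gap of Fcgr3 between experiments was larger than its difference between genotypes, and the standard error of that difference was 0.07 with pairing and 0.35 without.

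The genes whose pattern was most like that of a member were found by Pearson correlation over the 9 arrays, after subtracting the mean of each experiment. These values are descriptions: the arrays share genotypes and experiments, and the best of 12579 genes is always high. For Cd160 they were Setbp1 (r = 0.996) and Grasp (r = 0.981), with differences from WT of -0.20 and -0.30 in Tyk2K923E and -0.07 and -0.12 in Tyk2-/- cells. For Fcgr3 they were Inpp5k (r = 0.974) and Cd53 (r = 0.968), with differences of -0.13 and -0.11 in Tyk2K923E and -0.25 and -0.23 in Tyk2-/- cells. For Ncr1 they were Acadm (r = 0.990) and Mdk (r = 0.987). The closest genes were Zkscan14 (r = 0.989) for Fcer1g, Padi2 (r = 0.990) for Tyrobp, 9530057J20Rik (r = 0.983) for Hcst, Rab25 (r = 0.973) for Syk and Entpd5 (r = 0.973) for Zap70. No member was among the closest 2 genes of another.

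Other genes of the pathway were read from lists. No gene of the 5 pathway lists passed the adjusted threshold of the limma fits in either mutant genotype against WT, with or without pairing, so the following are counts at an unadjusted p under 0.05 in the paired fit, where 10.0% (Tyk2K923E) and 9.08% (Tyk2-/-) of all genes passed. The list of receptors that share these adaptors, together with their heterodimer partners and inhibitory relatives, had 13 tested of 30 listed genes. In Tyk2K923E cells 7 of the 13 were lower and 1 was higher at this level, with a median of -0.32. In Tyk2-/- cells 7 were lower and 0 higher, with a median of -0.29. The list held Osm, a cytokine gene and no receptor, by mistake, and without it the median was -0.33 in Tyk2K923E and -0.31 in Tyk2-/- cells.

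Within this list, the smallest p-values in Tyk2K923E cells belonged to Klrk1, Clec4e, Klri2 and Klrd1. Klrk1, which encodes the DAP10-coupled receptor NKG2D, differed by -0.47 (limma adjusted p = 0.0734) in Tyk2K923E and by -0.32 (limma adjusted p = 0.287) in Tyk2-/- cells. Klrd1, which encodes CD94, the partner of NKG2 chains other than NKG2D, differed by -0.35 in both mutant genotypes. Klri2, a lectin-like receptor gene, differed by -0.61 in Tyk2K923E and -0.58 in Tyk2-/- cells. Clec4e, which encodes the myeloid lectin Mincle that signals through the Fc receptor gamma chain, differed by 0.49 in Tyk2K923E cells (limma adjusted p = 0.103). Klra9, a Ly49 gene and one of the inhibitory relatives in the list, differed by -0.92 in Tyk2-/- cells (limma adjusted p = 0.0860) and by -0.47 in Tyk2K923E cells. The other Ly49 genes of the list were not among the genes tested. Ly49 genes are closely similar copies, so probes may read several of them.

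Of 16 other activating and costimulatory receptors tested, 6 were lower and 0 higher at an unadjusted p under 0.05 in Tyk2K923E cells (median -0.03), and 1 was lower in Tyk2-/- cells (median -0.15). Those with the smallest p-values in Tyk2K923E cells were the adhesion receptor Cd2 (-0.48), Cd96 (-0.26) and Cd226 (-0.44), both of which bind nectin-family ligands, and the TNF receptor family member Cd27 (-0.27). The gene lower in Tyk2-/- cells was Cd244a (-0.14), which encodes the SLAM family receptor 2B4.

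Of 4 other ITAM chains tested, Cd3d (-0.36) was lower at this level in Tyk2K923E cells (list median -0.32), and 0 were in Tyk2-/- cells (list median 0). Cd3d and Cd3e encode chains of the T cell receptor complex and stand in the T cell marker list as well.

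Of 46 signalling genes downstream of ITAMs and DAP10, 8 passed an unadjusted p under 0.05 in Tyk2K923E cells, 5 of them lower and 3 higher (median -0.01), and 0 in Tyk2-/- cells (median -0.03). They included Lat, the membrane scaffold phosphorylated by ZAP-70 and SYK (-0.48, limma adjusted p = 0.0696), Lcp2, which encodes its cytosolic partner SLP-76 (-0.18), the phosphatidylinositol 3-kinase subunit Pik3cb (0.28) and the kinase Tec (0.20). Of 21 negative regulators, 8 were lower and 1 higher in Tyk2K923E cells (median -0.12), and 2 were lower in Tyk2-/- cells (median 0.02). Dgka, a diacylglycerol kinase that limits signalling after receptor engagement, differed by -0.42 in Tyk2K923E (limma adjusted p = 0.103) and by -0.30 in Tyk2-/- cells. Sla (-0.45) and Ubash3a (-0.33), an adaptor and a phosphatase that dampen antigen receptor signalling, were lower in Tyk2K923E cells, and the ubiquitin ligase gene Cblb (0.21) was higher, none of them past adjustment.

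**Figure D4:**
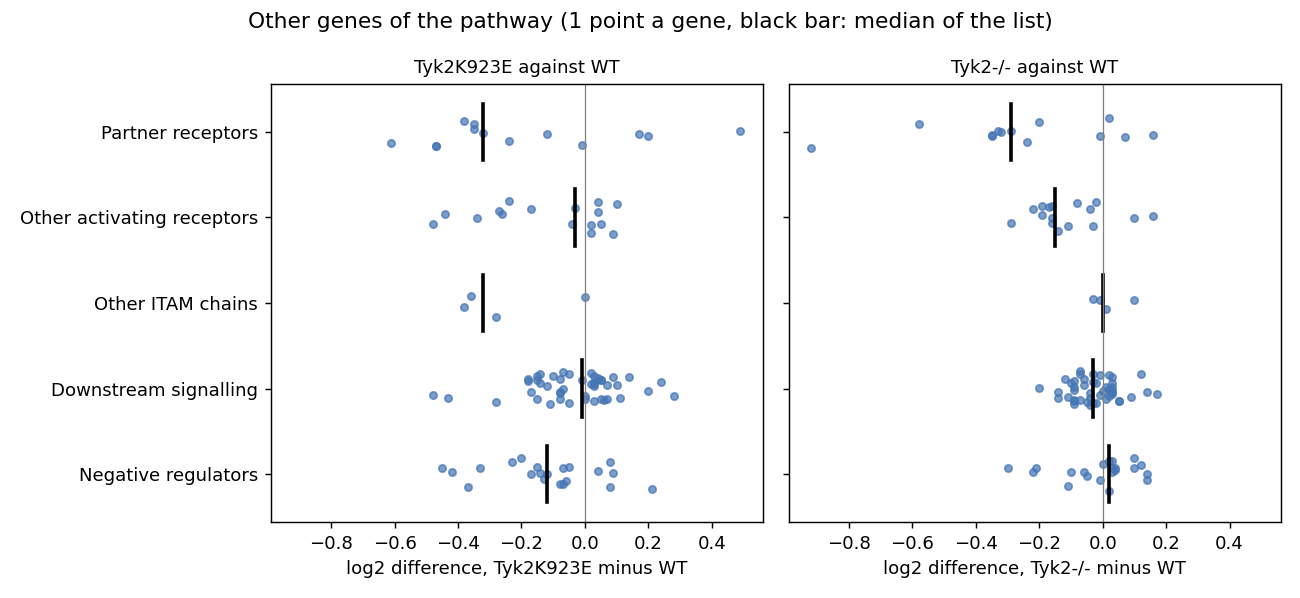
Log2 differences from WT (horizontal axes) of the other pathway genes, 1 point a gene, by list (vertical axis), in Tyk2K923E cells (left) and Tyk2-/- cells (right). Black bars are list medians. The median of the 13 genes in the list of partner receptors is -0.32 in Tyk2K923E and -0.29 in Tyk2-/- cells, and that of the 46 downstream signalling genes is -0.01 in Tyk2K923E and -0.03 in Tyk2-/- cells.

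Markers of NK cells, among them the antigen used for the enrichment, and of other cells that could express these genes were read too. Of the 13 NK cell markers, 8 were lower and 5 higher in Tyk2K923E than in WT cells (median -0.12), 5 of the lower and 1 of the higher at an unadjusted p under 0.05, where 10.0% of all genes passed. Of the same 13 markers, 7 were lower and 6 higher in Tyk2-/- than in WT cells (median -0.13), 6 of the lower and 0 of the higher at that level, where 9.08% of all genes passed. The NK markers at this level thus lay mostly below WT, as Cd160 and Fcgr3 did, and their part in the receptors' values was not tested. Klrk1, Klrd1 and Klre1, which passed in both comparisons, and Klrb1c, which passed in Tyk2-/- cells, are also in the list of partner receptors. The cytotoxic granule gene Prf1 (perforin) differed by 0.19 in Tyk2K923E and 0.09 in Tyk2-/- cells, and Gzmb (granzyme B) by 0.02 in Tyk2K923E and 0.03 in Tyk2-/- cells. The transcription factor gene Eomes differed by 0.03 in Tyk2K923E and 0.05 in Tyk2-/- cells, and Il2rb, an IL-2 receptor chain gene, by 0.02 in both. Other genes of these kinds were lower. Gzma (granzyme A) differed by -0.13 in Tyk2K923E and by -0.21 in Tyk2-/- cells, where it passed the unadjusted level. The transcription factor gene Tbx21 differed by -0.17 in Tyk2K923E cells, where it passed that level, and by -0.13 in Tyk2-/- cells. Among the NK markers 1 passed adjustment: Itga2, which encodes CD49b, the antigen that DX5 recognises, fell by 0.71 in Tyk2K923E against WT cells (limma adjusted p = 0.0375, and 0.155 without pairing), as Cd160 did, and differed by -0.39 in Tyk2-/- cells (limma adjusted p = 0.254). Its values were 7.62, 7.81 and 7.75 in Tyk2K923E, 8.10, 8.01 and 8.03 in Tyk2-/- and 8.34, 8.62 and 8.34 in WT cells.

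Of 12 T cell markers tested of 14 listed, 12 were lower in Tyk2K923E than in WT cells, 7 of them at an unadjusted p under 0.05 (median -0.37). In Tyk2-/- cells 11 were lower, 0 of them at that level (median -0.10). At that level 10.0% of all genes passed for Tyk2K923E and 9.08% for Tyk2-/-. Lat, Cd28 and the CD3 chains of this list are also in the pathway lists. The mean of the 14 T cell markers on an array ranged over 7.37 to 7.62 in Tyk2K923E, 7.62 to 7.84 in Tyk2-/- and 7.63 to 7.97 in WT cells. Of these 14 markers, 11 lay above the array median on every array. The defining marker Cd3e read 10.49 to 11.8 over the 9 arrays and was above the median on all of them. Cd8a, a T cell coreceptor gene, differed by -0.92 in Tyk2K923E cells (limma adjusted p = 0.173) and by -0.32 in Tyk2-/- cells (limma adjusted p = 0.695).

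Of 9 basophil and mast cell markers, 2 were above the filter on low values. Mcpt8, a basophil protease gene, read 10.99, 11.04 and 10.47 in Tyk2K923E, 10.39, 11.06 and 10.22 in Tyk2-/- and 10.04, 10.28 and 9.87 in WT cells. It differed from WT by 0.77 in Tyk2K923E (limma adjusted p = 0.0684) and by 0.49 in Tyk2-/- cells, and Cpa3, a mast cell and basophil protease gene, differed by 0.91 in Tyk2K923E cells (limma adjusted p = 0.190) and by -0.02 in Tyk2-/- cells (limma adjusted p = 0.989). Both markers were thus higher than WT in Tyk2K923E cells at an unadjusted p under 0.05, where 10.0% of all genes passed. Only Mcpt8 was in Tyk2-/- cells, where 9.08% passed. The mean of the 9 markers on an array ranged over 5.20 to 5.37 in Tyk2K923E, 5.13 to 5.18 in Tyk2-/- and 5.04 to 5.12 in WT cells. Basophils also express Fcer1g and Tyrobp, and some T cells express Cd160 and Zap70. The part of basophils in the values of the adaptors, the receptors or the kinases was not tested. Nor was that of T cells in the values of Cd160, Zap70, Lat and the CD3 chains.

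The other defining markers differed in level. S100a8 (neutrophils) read 2.70 to 3.07 and Flt3 (dendritic cells) 5.03 to 5.31, both below the array median on every array, and none of the 9 B cell markers with a probe set was above it on all arrays. Csf1r (monocytes and macrophages) read 5.09 to 6.09, above the median on 2 of 9 arrays. Of the 13 monocyte and macrophage markers with a probe set, 4 lay above the array median on every array. The array mean of the 13 ranged over 6.17 to 6.21 in Tyk2K923E, 6.09 to 6.17 in Tyk2-/- and 6.15 to 6.28 in WT cells. At an unadjusted p under 0.05, 2 of the 5 tested monocyte and macrophage markers, Ly6c2 and Ccr2, were lower than WT and 1, Cd14, was higher, in each mutant genotype. Of all genes, 10.0% passed this level for Tyk2K923E and 9.08% for Tyk2-/-. Of the 9 dendritic cell markers with a probe set, 5 lay above the array median on every array, although Flt3 did not. The array mean of the 9 ranged over 6.69 to 6.81 in Tyk2K923E, 6.64 to 6.81 in Tyk2-/- and 6.73 to 7.00 in WT cells. Of the 6 tested, Itgax, an integrin chain gene that NK cells also express, differed by -0.68 in Tyk2K923E (limma adjusted p = 0.203) and by -0.88 in Tyk2-/- cells (limma adjusted p = 0.222). The class II gene H2-Ab1 differed by -0.18 in Tyk2K923E and -0.28 in Tyk2-/- cells, and Cd209a, a lectin gene, by -0.03 in Tyk2K923E and -0.07 in Tyk2-/- cells. The part of monocytes, macrophages and dendritic cells in the values of Fcgr3, Fcer1g, Tyrobp and Syk was not tested. Fcgr2b, the inhibitory IgG receptor gene of B and myeloid cells that lies near Fcgr3, read 5.12 to 5.57.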

How the data were processed

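Microarrays of 9 cultures (3 genotypes, 3 experiments) were analysed from the table of processed values. Per the submitters' processing notes, the deposited log2 values were made with RMA in Partek 6.6, and the RMA version, genome build and annotation were not given in the sources used here. Values ranged from 1.10 to 14.1 over 41345 probe sets, array medians from 5.42 to 5.48, and correlations between arrays over the genes tested from 0.966 to 0.997. RMA scales all arrays to 1 distribution, so a change shared by all genes would not be seen.

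Probe sets were named through the platform annotation: 23521 had 1 gene symbol, 1814 several and 16010 were not listed. Of those with 1 symbol, 13245 reached the median of their array on 3 or more of the 9 arrays and stayed in, and the brightest stood for the gene (12579 genes). Genotypes were compared with limma 3.58.1 (R 4.3.3, lmFit and eBayes) in 1 fit to all 9 arrays, with a mean per genotype and the experiment as an additive fixed block (4.01 prior degrees of freedom). P-values were adjusted over 12579 genes by Benjamini-Hochberg, at a threshold of 0.05. The pairing comes from the experiment number in the labels. Deviations from the genotype mean correlated at 0.383 to 0.787 in the 9 pairs of arrays that share an experiment. In the other pairs they correlated at -0.71 to 0.559. The ranges overlap, and deviations from a mean cancel over the 3 arrays of a genotype. High values within experiments thus force low ones between them, so this contrast does not test the pairing. An exact test of 3 against 3 arrays cannot give a p under 0.1, and the number of arrays limits the precision. The procedure was tested on simulated data.

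The rule named all members, from each pathway list up to 4 genes with the smallest p in a comparison with WT, and the 2 genes most correlated with each member. The members and lists were chosen with earlier results of these data known. Alternatives were a fit without the block or with a random block, fits to 2 genotypes at a time, no filter or one at the 70th percentile, median centring, quantile normalization, an intensity trend, array weights (statmod 1.5.0), the mean over probe sets, other class memberships and fits that left out 1 array or 1 experiment. The list without Osm was added after the data were seen. Cd247 and protein sequences were not analysed here. Promoters were taken from RefSeq (GRCm38.p6), and other gene coordinates were not printed because the authors' build is unnamed. Figures were drawn with matplotlib 3.10.9 (Python 3.11.15).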

Additional observations from a re-analysis of the deposited data

How the results depend on the processing

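The signs of Cd160 and Fcgr3 in both comparisons with WT held under all 22 alternatives run for each gene. Without the replicate block, 1, 4 and 3 genes were called in Tyk2K923E against WT, Tyk2-/- against WT and Tyk2-/- against Tyk2K923E, and 0 members were called in any. With only the 2 genotypes compared, 2 genes were called in Tyk2K923E against WT and 6 in Tyk2-/- against WT, and with no filter 1 and 4, with 0 members called in either. The 70th percentile filter gave 29 and 19 genes, an intensity trend 41 and 22 and array weights 66 and 26, each with Fcgr3 as 1 member called in Tyk2-/- against WT. Median centring gave 20 and quantile normalization 17 genes in Tyk2K923E against WT. Leaving out an array or an experiment gave 1 to 34 genes in Tyk2K923E against WT, with 0 to 1 members called, 3 to 11 in Tyk2-/- against WT and 2 to 6 in Tyk2-/- against Tyk2K923E. The 34 genes came without the Tyk2-/- array of experiment 2. These fits have fewer residual degrees of freedom, and a genotype left with fewer arrays is assumed to vary like the others. With Cd160 left out, receptors minus adaptors was -0.28 in Tyk2K923E against WT.

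The members whose sign turned were never called, and not all of them had differences near 0. In the main fit Syk differed by -0.17 in Tyk2-/- against WT and Ncr1 by -0.13 in Tyk2K923E against WT. Zap70 in Tyk2-/- against WT was -0.0012 under quantile normalization, and the cause was not tested. When arrays or experiments were left out, the ranges in Tyk2K923E against WT were -0.29 to 0.01 for Ncr1, -0.07 to 0.03 for Fcer1g and -0.05 to 0.13 for Hcst. In Tyk2-/- against WT they were -0.09 to 0.02 for Fcer1g, -0.12 to 0.07 for Tyrobp, -0.17 to 0.03 for Hcst, -0.28 to 0.01 for Syk and -0.05 to 0.06 for Zap70. In Tyk2-/- against Tyk2K923E they were -0.23 to 0.07 for Ncr1, -0.09 to 0.05 for Fcer1g, -0.24 to 0.01 for Hcst and -0.06 to 0.23 for Syk. The Syk mean in Tyk2-/- against WT was 0.01 without experiment 2.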
